A study of Mus musculus with 16 samples.

Results

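The acute-phase response is the change in liver protein secretion that follows infection or tissue injury. Interleukin 6, which signals through STAT3, and interleukin 1 and tumour necrosis factor, which signal through NF-kB and C/EBP factors, raise the transcription of positive acute-phase genes in hepatocytes. The proteins scavenge haem and metals, bind microbial products and stabilise extracellular matrix. The 10 genes described here are positive acute-phase genes other than the serum amyloid A, orosomucoid and fibrinogen genes: Hp, Hpx, Lcn2, Cp, Steap4, Lbp, Cd14, Apcs, Itih3 and Itih4. They were taken by name, and all 10 of the 10 were found among the 17003 genes of the deposited expression table.

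Liver RNA was sequenced from 16 male mice at 8 weeks of age, labelled as fed and kept on normal chow, with 1 library per mouse. The 8 Fgl1 WT mice carry floxed Fgl1 alleles without Cre, and the 8 Fgl1 LKO mice, their littermates, also carry Cre under the albumin promoter, so that the deletion is directed to hepatocytes. Fgl1 encodes a secreted hepatocyte protein, and the comparison of genotypes asks how the liver transcriptome differs when hepatocytes lack it. Values are FPKM, fragment counts scaled to transcript length and library size, summing to between 673153 and 786188 in a mouse.

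Between 14116 and 14407 genes were above 0 in each library, no 2 libraries were identical, and the number of reads behind them is unknown. Fgl1 had 504 ± 440 FPKM (SD, n = 8) in the Fgl1 WT mice and 52.0 ± 30.0 FPKM (SD, n = 8) in mice labelled Fgl1 LKO, and the groups did not overlap. Its log2 difference, on the log2(FPKM + 1) scale used for every difference here, was -3.11 with an SE of 0.49 (two-sided exact permutation test, p = 0.000155, the lowest value that 8 against 8 mice allow). The adjusted p of limma over 12770 genes was 0.0725. The numbers in the library names fall into 4 runs, and the run 36 to 38 holds 3 mice, all Fgl1 WT, while the other runs hold both genotypes. Hepatocyte markers summed to between 49658 and 89210 FPKM in each mouse. Cell fractions were not measured, so that fewer cells of a type and less RNA per cell cannot be told apart in these whole-liver libraries.

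The promoter sequences of the genes show where letters known from acute-phase control lie. RefSeq promoters (GRCm38.p6) were searched for 7 of the 10 genes. No promoter of Hp, Lbp or Cd14 was searched, so that the motif counts below leave these genes out. The 250 bases before each start were searched on both strands for TTCNNNGAA, the motif of STAT factors, and TTGCNNAA, a motif of C/EBP factors. They were also searched for 1 form of the NF-kB motif, GGG followed by any 3 bases and TTCC. The STAT motif was found in Apcs, Itih4 and Steap4, and in 7.02% of all 32851 promoters. The C/EBP motif was found in Cp, Hpx, Lcn2 and Steap4, and in 9.56% of all promoters. The percentages count promoters, and the 7 genes gave 8, since Cp had another start before which no motif was found. The NF-kB motif in this form was found only in Steap4 among the 7 genes, and in 4.65% of all promoters. No match overlapped another motif's match, and the STAT motif reads the same on both strands and was counted once. Itih3 held none of the 3 motifs in this window. A match is a description of letters and not a binding site.

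The promoters of 4 genes whose levels in single mice are followed below are printed 5′ to 3′ on the gene's strand, ending at the base before the start, with matches in capitals. Steap4 (chr5:7960222-7960471, plus strand) is shown because it alone among the searched genes held all 3 motifs, in the order NF-kB, STAT and C/EBP. Lcn2 (chr2:32387740-32387989, minus strand), the most variable of the genes, held a C/EBP match 216 to 209 bases before its start. Apcs (chr1:172895055-172895304, minus strand) and Itih4 (chr14:30886226-30886475, plus strand) held the STAT motif, at 244 to 236 and at 51 to 43 bases before the start.
Steap4: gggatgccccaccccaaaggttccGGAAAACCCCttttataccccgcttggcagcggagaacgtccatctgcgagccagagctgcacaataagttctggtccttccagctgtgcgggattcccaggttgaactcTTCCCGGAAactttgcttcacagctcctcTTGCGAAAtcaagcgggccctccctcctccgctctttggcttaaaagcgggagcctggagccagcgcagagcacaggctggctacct
Lcn2: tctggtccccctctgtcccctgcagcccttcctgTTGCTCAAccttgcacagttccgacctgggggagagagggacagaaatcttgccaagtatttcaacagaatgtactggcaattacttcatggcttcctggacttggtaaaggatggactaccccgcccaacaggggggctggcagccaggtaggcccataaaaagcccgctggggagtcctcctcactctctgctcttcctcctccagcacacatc
Apcs: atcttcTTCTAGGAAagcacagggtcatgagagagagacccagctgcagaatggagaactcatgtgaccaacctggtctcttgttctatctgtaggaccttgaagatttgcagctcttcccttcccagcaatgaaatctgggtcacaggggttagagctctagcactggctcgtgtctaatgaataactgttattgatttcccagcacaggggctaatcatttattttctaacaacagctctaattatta
Itih4: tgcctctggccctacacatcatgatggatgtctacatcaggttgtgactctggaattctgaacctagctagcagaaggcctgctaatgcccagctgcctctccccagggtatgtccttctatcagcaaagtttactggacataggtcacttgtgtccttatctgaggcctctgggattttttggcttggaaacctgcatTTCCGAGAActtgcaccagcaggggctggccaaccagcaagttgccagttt

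No difference between the genotypes was detected for any of the 10 genes. With limma, 0 of 10 had an adjusted p under 0.05, in a comparison in which 0 of 12770 genes, or 0%, did. At an unadjusted p under 0.05 the count was also 0 of 10, against 895 of 12770 genes (7.01%; 593 higher and 302 lower in Fgl1 LKO mice, or 467 and 519 after scaling by median ratios). Exact permutation tests, two-sided and unadjusted, also called 0 of 10, but they were not run over all genes, so that no share stands beside this count. In each of the 10 genes the ranges of the genotypes overlapped, as in all but 2 of the 12770 genes tested (0.0157% did not overlap). Of the estimates, 7 lay above 0 and 3 below, where 7126 of 12770 genes lay above 0, and their median was 0.15 against 0.014 over all genes. The widths of the 95% intervals followed the differences between mice of the same genotype, and the intervals ran from -0.33 to 0.32 for Cp but from -2.12 to 2.70 for Lcn2.

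What set these genes apart from most was the range between mice. The within-genotype SD of log2(FPKM + 1) was 2.57 for Lcn2, the third largest of 12770 genes, 1.29 for Steap4 and 0.87 for Apcs, against a median of 0.17 over all genes. It was 0.82 for both Hp and Hpx, 0.61 for Itih4, 0.60 for Itih3 and 0.55 for Lbp. Cp (0.33) and Cd14 (0.32) varied least, and 88.5% of all genes had a lower SD than Cd14. The 10 genes together made up 0.865% of the summed FPKM in Fgl1 LKO mouse 3 and 4.24% in Fgl1 WT mouse 7. The highest levels were mostly found in 4 mice, Fgl1 WT mice 5 and 7 and Fgl1 LKO mice 5 and 8, which were the top 4 for 5 of the 10 genes (Hpx, Cp, Itih3, Itih4 and Apcs).

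**Figure D1:**
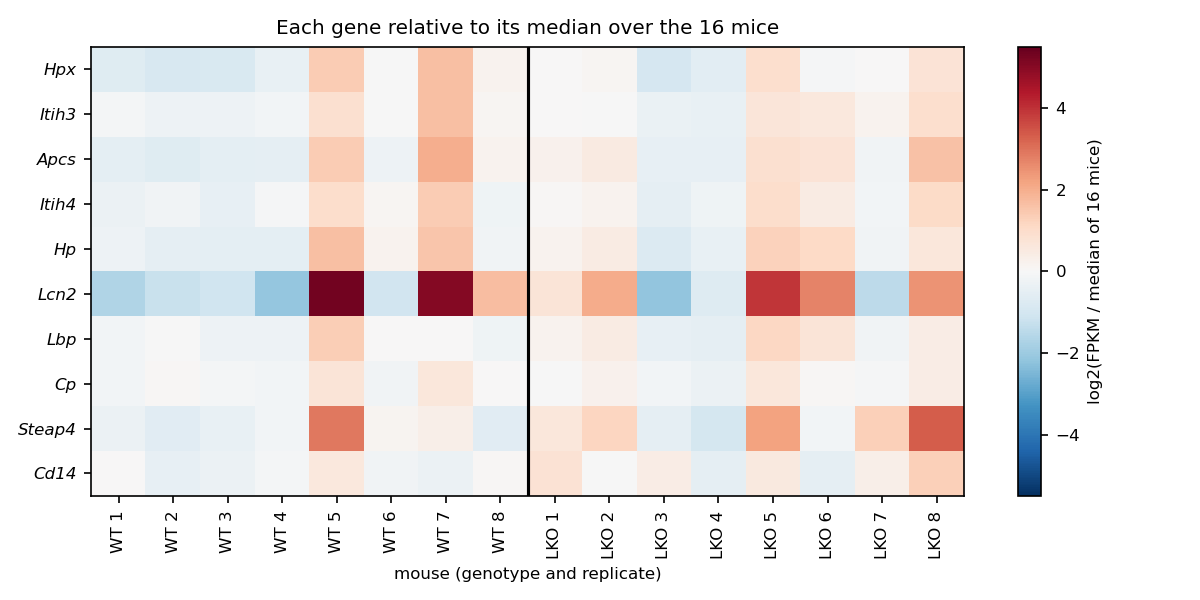
Level of each gene in each of the 16 mice, as log2 of its FPKM over its median in all mice (colour), with Fgl1 WT mice left and Fgl1 LKO mice right of the line. Fgl1 WT mice 5 and 7 and Fgl1 LKO mice 5 and 8 are high for most genes, Lcn2 spans from -2.15 to 5.32, and Steap4 is high in Fgl1 WT mouse 5 but not in mouse 7.

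Haptoglobin (Hp) binds free haemoglobin and hemopexin (Hpx) binds free haem, and both carry their cargo to the liver for clearance. On GRCm39, Hp lies on chromosome 8 from 110301759 to 110305804 and Hpx on chromosome 7 from 105240817 to 105249344, both on the minus strand. They were the most abundant of the 10 genes, ranking 23 and 22 of 12770 by mean FPKM. Hp had a lowest, median and highest level of 2530, 3177 and 11656 FPKM in Fgl1 WT mice and of 2182, 4683 and 8950 FPKM in Fgl1 LKO mice. Mice 5 and 7 of the Fgl1 WT group, at 11656 and 10798 FPKM, stood above all others, and the remaining mice of both groups overlapped. Its mean was 5100 ± 3828 FPKM in Fgl1 WT and 5045 ± 2446 FPKM in Fgl1 LKO mice (SD, n = 8 each), and the log2 difference was 0.12 with an SE of 0.37 (limma, adjusted p = 0.954).

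For Hpx the corresponding levels were 2373, 3814 and 13657 FPKM in Fgl1 WT mice and 2293, 4419 and 8257 FPKM in Fgl1 LKO mice. The same 2 Fgl1 WT mice were again above all others, while the lowest level was found in an Fgl1 LKO mouse. The log2 difference was -0.024 with an SE of 0.37 (limma, adjusted p = 0.987), with a 95% interval from -0.80 to 0.75. Of the partners of these proteins, Cd163, the haemoglobin-haptoglobin receptor of macrophages, had 2.64 ± 1.01 and 3.38 ± 1.02 FPKM (SD, n = 8 each) in Fgl1 WT and Fgl1 LKO mice. Lrp1, the receptor for the haem-hemopexin complex, had 74.6 ± 9.41 and 83.4 ± 8.56 FPKM, and Hmox1, which degrades haem, had 10.5 ± 5.49 and 13.3 ± 3.31 FPKM (limma, adjusted p = 0.714, 0.700 and 0.711). Of the 9 genes listed for haem and haemoglobin clearance, 0 passed the adjusted threshold, and 1 had an unadjusted p under 0.05 (7.01% of all genes). That gene was the haem transporter gene Flvcr2, with a log2 difference of -0.44 (SE 0.14, limma, adjusted p = 0.696).

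Lipocalin 2 (Lcn2) withholds iron from bacteria by binding their siderophores, and is made by hepatocytes in inflammation and stored in neutrophil granules. The gene lies on chromosome 2 of GRCm39 from 32274645 to 32278264, on the minus strand. Its lowest, median and highest levels were 5.30, 11.0 and 921 FPKM in Fgl1 WT mice and 5.17, 65.9 and 350 FPKM in Fgl1 LKO mice. Fgl1 WT mice 5 and 7, at 921 and 768 FPKM, stood above every Fgl1 LKO mouse, whereas 5 other Fgl1 WT mice lay at 11.2 FPKM or below. The mean was therefore higher in the Fgl1 WT mice (226 ± 385 against 98.4 ± 116 FPKM; SD, n = 8 each) and the median and the mean log2 level higher in the Fgl1 LKO mice. The log2 difference was 0.29 with an SE of 1.14 and a 95% interval from -2.12 to 2.70 (limma, adjusted p = 0.963).

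Neutrophils were followed by 11 markers. These markers, none of which was at 0 in all mice, summed to between 1.27 and 35.7 FPKM in Fgl1 WT mice (median 5.70) and between 3.41 and 28.6 FPKM in Fgl1 LKO mice (median 11.1). Fgl1 WT mouse 5 had the highest sum and Fgl1 WT mouse 7 reached 25.8 FPKM, and the Spearman correlation of the sum with Lcn2 was 0.57 over the 16 mice. S100a8 and S100a9 made up most of the sum, at 19.6 and 12.2 FPKM in Fgl1 WT mouse 5, where Mpo was at 0 and Elane at 0.09 FPKM. Fgl1 WT mouse 4 had 11.4 and 8.54 FPKM of S100a8 and S100a9 with Lcn2 at 5.30 FPKM, the second lowest level. The summed markers of sinusoidal endothelial cells, hepatocytes and stellate cells had correlations with Lcn2 of -0.66, -0.66 and -0.59. Fgl1 WT mouse 5 and Fgl1 LKO mouse 5, with the highest Lcn2 of their genotypes, had the lowest hepatocyte sums, 54345 and 49658 FPKM. Most of the hepatocyte sum was Alb, which is also among the negative acute-phase genes listed below. It averaged 41750 FPKM over the 16 mice and was lowest in Fgl1 LKO mouse 5, at 31146 FPKM. The hepatocyte sum therefore mixes cell content with the acute-phase state. Ly6g, a defining neutrophil gene, was at 0 in 14 of 16 mice and at most 0.10 FPKM. The part of these cell types in the level of Lcn2 was not tested. Slc22a17, a receptor for lipocalin 2, had 0.38 ± 0.094 and 0.31 ± 0.089 FPKM (SD, n = 8 each; limma, adjusted p = 0.785).

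Ceruloplasmin (Cp) carries copper and oxidises ferrous iron, and Steap4 is a membrane metalloreductase that reduces iron and copper. Both lie on the plus strand of GRCm39, Cp on chromosome 3 from 20011090 to 20063930 and Steap4 on chromosome 5 from 8010260 to 8032214. Cp had 345, 383 and 648 FPKM as lowest, median and highest level in Fgl1 WT mice and 318, 397 and 602 FPKM in Fgl1 LKO mice. It was highest in Fgl1 WT mice 5 and 7 and Fgl1 LKO mouse 5 and otherwise lay between 318 and 513 FPKM, where the genotypes mixed. With the smallest range among the 10 genes, 2.04-fold from the lowest to the highest mouse, it had a log2 difference of -0.0068 (SE 0.15; limma, adjusted p = 0.991) and a 95% interval from -0.33 to 0.32.

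Steap4 had 25.2, 33.1 and 292 FPKM in Fgl1 WT mice and 19.7, 74.1 and 386 FPKM in Fgl1 LKO mice. In the Fgl1 WT group 1 mouse, number 5, stood at 292 FPKM and the next at 48.3 FPKM, while 5 of the Fgl1 LKO mice had 59.6 FPKM or more, of which mouse 8 had the highest level of all. Its log2 difference was the largest estimate of the 10, at 0.71 with an SE of 0.57 (limma, adjusted p = 0.784; exact permutation test, two-sided, p = 0.283), and the 95% interval of -0.49 to 1.92 includes 0. Without Fgl1 WT mouse 5 it was 1.10 with an unadjusted p of 0.0372 (limma, adjusted p = 0.497, with a range of 0.497 to 0.964 over 26 alternatives). In that fit 1198 of 12770 genes had an unadjusted p under 0.05, against 895 with all mice. In the other direction, the log2 difference of Steap4 was 0.37 without Fgl1 LKO mouse 8 and 0.36 without the run 36 to 38.

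The 3 other STEAP genes lay lower. Steap1 had 0.16 ± 0.11 and 0.18 ± 0.16 FPKM, Steap2 0.94 ± 0.26 and 0.91 ± 0.15 FPKM and Steap3 10.5 ± 1.64 and 9.14 ± 2.76 FPKM in Fgl1 WT and Fgl1 LKO mice (SD, n = 8 each; limma, adjusted p = 0.965, 0.964 and 0.759). None of the 4 STEAP genes, the 16 tested of 17 iron handling genes and the 7 copper handling genes had an unadjusted p under 0.05. Among them, Slc40a1, which exports iron and works with ceruloplasmin, had 36.9 ± 11.6 and 35.4 ± 5.43 FPKM, and Heph, a ferroxidase related to ceruloplasmin, had 0.24 ± 0.091 and 0.27 ± 0.12 FPKM (SD, n = 8 each; limma, adjusted p = 0.981 and 0.907).

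**Figure D2:**
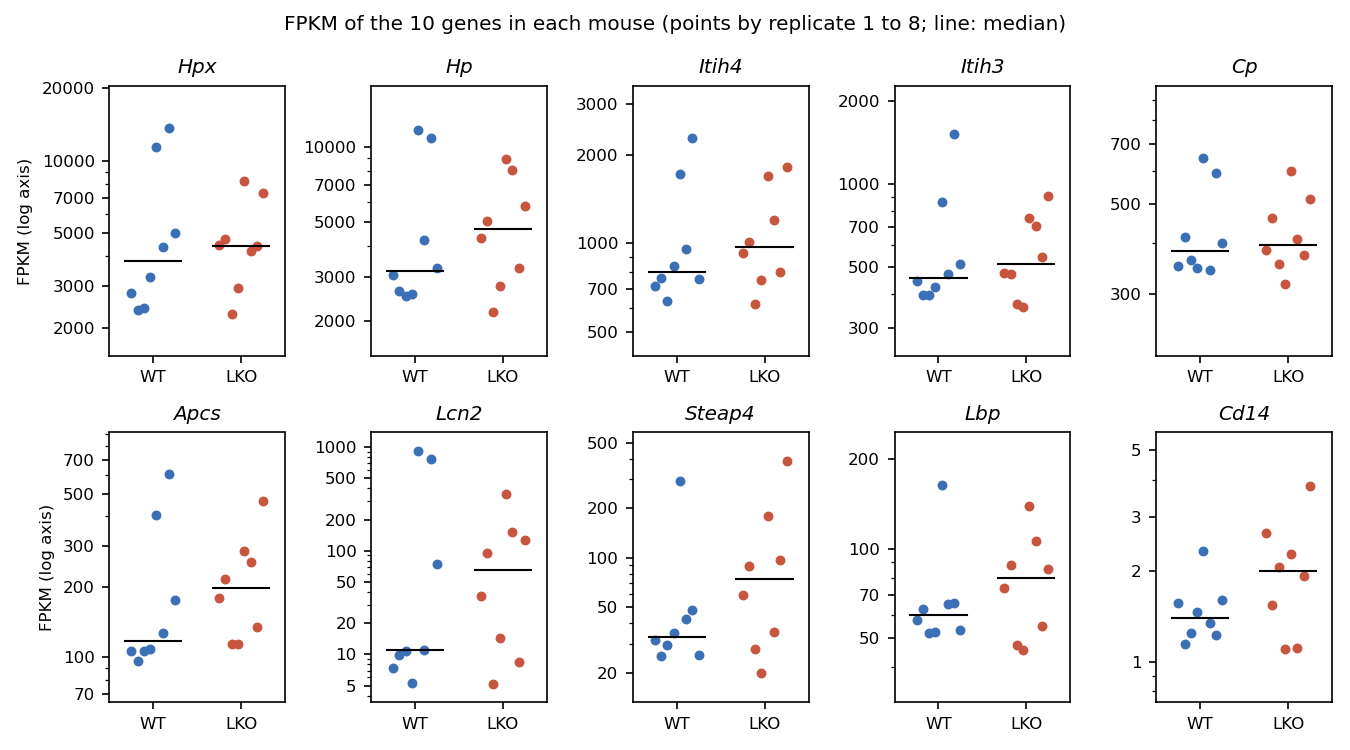
FPKM (log axis) of each of the 10 genes in the 8 Fgl1 WT (blue) and 8 Fgl1 LKO (red) mice, 1 point per mouse, with the median as a line, in the order of the mean level. The genotypes overlap in each panel, and in 8 of the 10 genes the highest point is an Fgl1 WT mouse.

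Lipopolysaccharide-binding protein (Lbp) extracts lipopolysaccharide from bacterial membranes and hands it to Cd14, which passes it to Tlr4 and its partner Ly96. Lbp lies on the plus strand of chromosome 2 from 158148409 to 158174800 (GRCm39). It had 51.9, 60.1 and 164 FPKM in Fgl1 WT mice and 45.7, 79.6 and 139 FPKM in Fgl1 LKO mice. Of the Fgl1 WT mice 7 lay within 51.9 to 65.5 FPKM and mouse 5 alone stood above, and 5 Fgl1 LKO mice exceeded that band. The log2 difference of Lbp was 0.17 with an SE of 0.25 (limma, adjusted p = 0.879), with a 95% interval from -0.35 to 0.70. Fgl1 WT mouse 7, which was high for Hp, Hpx and Lcn2, had only 65.5 FPKM, so that Lbp was 2.50 times higher in mouse 5 than in mouse 7.

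Cd14 (GRCm39 chromosome 18, 36858120 to 36859851, minus strand) was the least abundant of the 10 genes, ranking 9022 of 12770. Its levels were 1.14, 1.40 and 2.32 FPKM in Fgl1 WT mice and 1.10, 1.99 and 3.82 FPKM in Fgl1 LKO mice. Of the Fgl1 LKO mice 6 of 8 lay above the Fgl1 WT median and mouse 8 was the highest, but the lowest 2 mice were Fgl1 LKO mice too. Its log2 difference of 0.26 (SE 0.15) had the smallest p of the 10 genes, 0.0926 unadjusted and 0.709 adjusted (limma), and 0.121 by the exact permutation test (two-sided). Leaving out 1 mouse moved its unadjusted limma p under 0.05 in 3 cases, to 0.0404 without Fgl1 WT mouse 5, 0.0321 without Fgl1 LKO mouse 4 and 0.0329 without Fgl1 LKO mouse 6, and the adjusted p was then 0.509, 0.618 and 0.482, the last being the lowest over 26 alternatives, which reached 0.952. In those 3 fits 1198, 1023 and 1233 of 12770 genes had an unadjusted p under 0.05, against 895 with all mice. A pseudocount of 1 understates fold changes at levels as low as those of Cd14, and its difference was 0.39 with a pseudocount of 0.01.

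Cd14 is also a gene of macrophages and monocytes, and the 11 markers of Kupffer cells and macrophages, none at 0 in all mice, summed to between 130 and 271 FPKM in Fgl1 WT mice and 181 and 349 FPKM in Fgl1 LKO mice, highest in Fgl1 LKO mouse 8. All 11 markers had estimates above 0, against 7126 of 12770 genes, and 2 had an unadjusted p under 0.05 (limma; 7.01% of all genes), of which Adgre1 had a log2 difference of 0.38 (SE 0.16, adjusted p = 0.696). All 11 were lowest in Fgl1 WT mouse 2, except Adgre1, which was lowest in Fgl1 WT mouse 3. Both mice belong to the run 36 to 38, which holds only Fgl1 WT mice. The part of that run in these estimates was not tested. The 7 monocyte markers summed to between 39.0 and 68.7 FPKM and between 43.5 and 73.2 FPKM. Nearly all of this sum was Lyz2, with a mean of 53.9 FPKM over the 16 mice, against 0.62 FPKM for Ly6c2, the next highest. The sums of the 2 lists had Spearman correlations of 0.51 each with Cd14 over the 16 mice, and that of the monocyte list is in effect that of 1 gene. The part of these cells in the level of Cd14 was not tested. Fgl1 LKO mouse 8 also stood apart in the cholangiocyte list, with a summed level of 262 FPKM, of which Spp1 made up 255 FPKM. In all marker lists of other cell types together, 1 gene had an unadjusted p under 0.05, where 7.01% of all genes did. It was the B cell gene Cd79b, from the 5 tested T and B cell markers, with a log2 difference of 0.27 (SE 0.11, limma, adjusted p = 0.696).

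Further along the lipopolysaccharide pathway, Tlr4 had 0.29 ± 0.063 and 0.30 ± 0.077 FPKM and Ly96 4.06 ± 1.41 and 5.05 ± 2.09 FPKM in Fgl1 WT and Fgl1 LKO mice (SD, n = 8 each; limma, adjusted p = 0.968 and 0.784). Of the 10 genes listed as partners in lipopolysaccharide recognition, 9 had estimates above 0 (7126 of 12770 over all genes), 0 passed the adjusted threshold and 1 had an unadjusted p under 0.05 (7.01% of all genes). That gene was Ticam1, the TRIF adaptor, with a log2 difference of 0.37 (SE 0.11; limma, adjusted p = 0.696).

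Serum amyloid P component, encoded by Apcs, is a pentraxin that binds microbial surfaces and amyloid fibrils and is the main acute-phase pentraxin of the mouse. The gene lies on chromosome 1 of GRCm39 from 172721528 to 172722611, on the minus strand. Its levels were 96.3, 118 and 609 FPKM in Fgl1 WT mice and 114, 198 and 468 FPKM in Fgl1 LKO mice. The 3 mice of the run 36 to 38 were the lowest 3 of all 16, at no more than 107 FPKM. The log2 difference was 0.23 with an SE of 0.39 (limma, adjusted p = 0.902), and it was -0.20 without that run. The related pentraxin gene Crp, the main acute-phase pentraxin of humans, had 250 ± 34.3 and 273 ± 50.3 FPKM (SD, n = 8 each; limma, adjusted p = 0.798), and its highest level over the 16 mice was 357 FPKM, against 609 FPKM for Apcs.

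Itih3 and Itih4 belong to the heavy chain genes of the inter-alpha-trypsin inhibitor family, and the products of several of these, Itih3 among them, bind hyaluronan in extracellular matrix. They lie 6.22 kb apart on chromosome 14 of GRCm39, Itih4 from 30608378 to 30624310 on the plus strand and Itih3 from 30630529 to 30645722 on the minus strand, so that their 3′ ends face each other. The labels name a strand-specific library preparation, but how strand was used in counting is not given in the sources used here. Itih3 had 395, 457 and 1515 FPKM in Fgl1 WT mice and 356, 511 and 909 FPKM in Fgl1 LKO mice. Fgl1 WT mouse 7 was far above the rest and the other mice of both genotypes intermingled. The log2 difference of Itih3 was -0.034 with an SE of 0.27 (limma, adjusted p = 0.980).

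Itih4 had 637, 800 and 2302 FPKM in Fgl1 WT mice and 619, 973 and 1826 FPKM in Fgl1 LKO mice. Here too mouse 7 led the Fgl1 WT group, followed by Fgl1 LKO mouse 8. The log2 difference of Itih4 was 0.083 with an SE of 0.28 (limma, adjusted p = 0.957). The other liver members of the family varied less: over the 16 mice Itih1 ranged from 255 to 413 FPKM and Itih2 from 323 to 553 FPKM, whereas Itih3 ranged from 356 to 1515 FPKM. Itih1, Itih2 and Ambp, which encodes the light chain bikunin, had log2 differences of -0.075, -0.013 and -0.16 (SE 0.085, 0.11 and 0.17; limma, adjusted p = 0.833, 0.981 and 0.823). Of the 7 genes tested in this family list, which includes Itih3 and Itih4, 0 had an unadjusted p under 0.05.

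By mean FPKM over the 16 mice the order was Hpx, Hp, Itih4, Itih3, Cp, Apcs, Lcn2, Steap4, Lbp and Cd14. Hpx and Hp, at 5236 and 5072 FPKM, changed places between mice, with Hpx higher in 9 of 16. Hp exceeded Itih4, and Itih4 exceeded Itih3, in 16 of 16 mice. Itih3 exceeded Cp and Cp exceeded Apcs in 15 of 16 mice, with Apcs above Lcn2 in 13. Lcn2, Steap4 and Lbp had means of 162, 89.0 and 75.8 FPKM, but Lcn2 exceeded Steap4 in only 6 of 16 mice and Steap4 exceeded Lbp in only 5. Lbp was above Cd14 in every mouse, and this was the only pair of neighbours in the order whose ranges did not overlap. The order differed within the genotypes: Lcn2 stood above Apcs and Lbp above Steap4 in Fgl1 WT mice, and Hp above Hpx and Steap4 above Lcn2 in Fgl1 LKO mice.

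The genes moved together from mouse to mouse. After the genotype mean was subtracted, all 45 pairs had a positive Spearman correlation over the 16 mice, with a median of 0.76. It was 0.67 in Fgl1 WT mice alone, with 44 of 45 pairs positive, 0.81 in Fgl1 LKO mice alone, and 0.70 without Fgl1 WT mice 5 and 7, the 2 mice farthest from the median of the genes' mean level. These correlations are descriptions over points that share a library per mouse. Among the 8 genes other than Cd14 and Steap4 the 28 pairs ranged from 0.66 to 0.94, with 16 pairs at 0.8 or above. The closest pairs were Itih3 with Apcs and Hpx with Apcs (0.94 each), Hp with Apcs (0.93) and Hp with Itih4 (0.92). The neighbouring genes Itih3 and Itih4 reached 0.84.

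Steap4 and Cd14 stood at the edge of this group. The 8 correlations of Steap4 with the genes other than Cd14 lay between 0.48, with Lcn2, and 0.76, with Hpx. The 9 correlations of Cd14 lay between 0.14, with Lcn2, and 0.54, with Steap4. Single mice show the same division: Steap4 was 6.05 times higher in Fgl1 WT mouse 5 than in Fgl1 WT mouse 7, Lbp 2.50 times and Cd14 1.89 times. Lcn2, Hp and Cp were nearly level in this pair of mice, at 1.20, 1.08 and 1.09 times. Hpx, Itih4, Apcs and Itih3 went the other way, at 0.84, 0.75, 0.66 and 0.57 times. Between Fgl1 LKO mice 8 and 5, Steap4 was 2.14 times higher in mouse 8, whereas Lcn2 was at 0.36 times its level in mouse 5. Each of these ratios sets 1 mouse against another and has no replicate check.

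**Figure D3:**
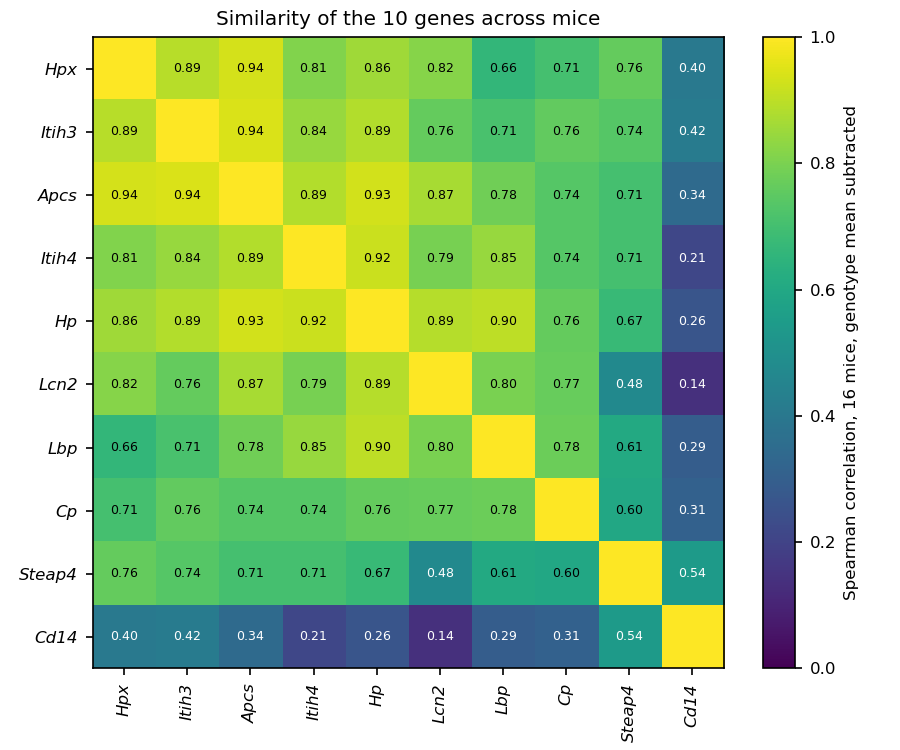
Spearman correlation between each pair of the 10 genes over the 16 mice, with the genotype mean subtracted from log2(FPKM + 1). The 8 genes from Hpx to Cp form a block at 0.66 or above, Steap4 lies between 0.48 and 0.76 with them, and Cd14 at 0.42 or below.

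The genes nearest to each of the 10 were then sought among all 12770 genes. For Lcn2 the nearest gene outside the 10 was Saa1 (0.94), a serum amyloid A gene that ran from 63.8 to 16269 FPKM, followed by the orosomucoid gene Orm2 (0.93). Saa1 and Orm2 have near-identical neighbours, and how reads were divided among them is not known. Hp and Apcs were both closest to Clu (0.97 each), which encodes the chaperone clusterin, and Hp next to Tmem176b (0.95). Hpx was closest to Orm1 (0.96) and the complement gene Hc (0.93). Itih4 was closest to Serping1 (0.94), the C1 inhibitor gene, and Lrg1 (0.93). Lbp lay next to Saa4 (0.93) and Ubl4a (0.89), and Cp next to Pros1 and Otulin (0.88 each), the former encoding protein S of the coagulation system.

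Steap4 had a separate set of neighbours. Its nearest genes were Bcl3 and Myd88 (0.96 each), an NF-kB cofactor and the adaptor of Toll-like and interleukin 1 receptors. Bcl3 had its highest levels, 66.1 and 61.1 FPKM, in Fgl1 WT mouse 5 and Fgl1 LKO mouse 8, the mice in which Steap4 was highest. Of the 100 genes nearest to Steap4, 0 were among the 10 and 3 were other positive acute-phase genes, whereas the counts for the 8 genes other than Cd14 and Steap4 were 6 to 7 and 13 to 17. Saa1 ranked 874 among the genes nearest to Steap4 and 3599 for Cd14, but within the first 45 for each of the other 8. Cd14 was nearest to Syn1 (0.87) and 9930111J21Rik2 (0.80), both at mean levels close to 0.1 FPKM, where values with 2 decimals change in coarse steps.

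Fgl1 itself was among the nearest genes. Outside the 10 genes it ranked second for Apcs (0.96) and first for Itih3 (0.95), with the genotype mean subtracted. Within Fgl1 WT mice its Spearman correlation was 0.93 with Apcs and with Hpx, 0.88 with Itih3 and 0.86 with Itih4 and Hp. Within Fgl1 LKO mice, where little Fgl1 remained, it was 0.98 with Apcs and Itih4 and 0.90 with Itih3 and Hp. For Cd14 the values were 0.24 and 0.52, and for Steap4 0.62 and 0.74 (n = 8 each). The Pearson correlation in Fgl1 WT mice leaned on the 2 extreme mice for Cp, where it went from 0.86 to 0.098 without them, for Steap4 (0.65 to 0.15) and for Lbp (0.61 to 0.17), but not for Hpx (0.99 to 0.97).

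**Figure D4:**
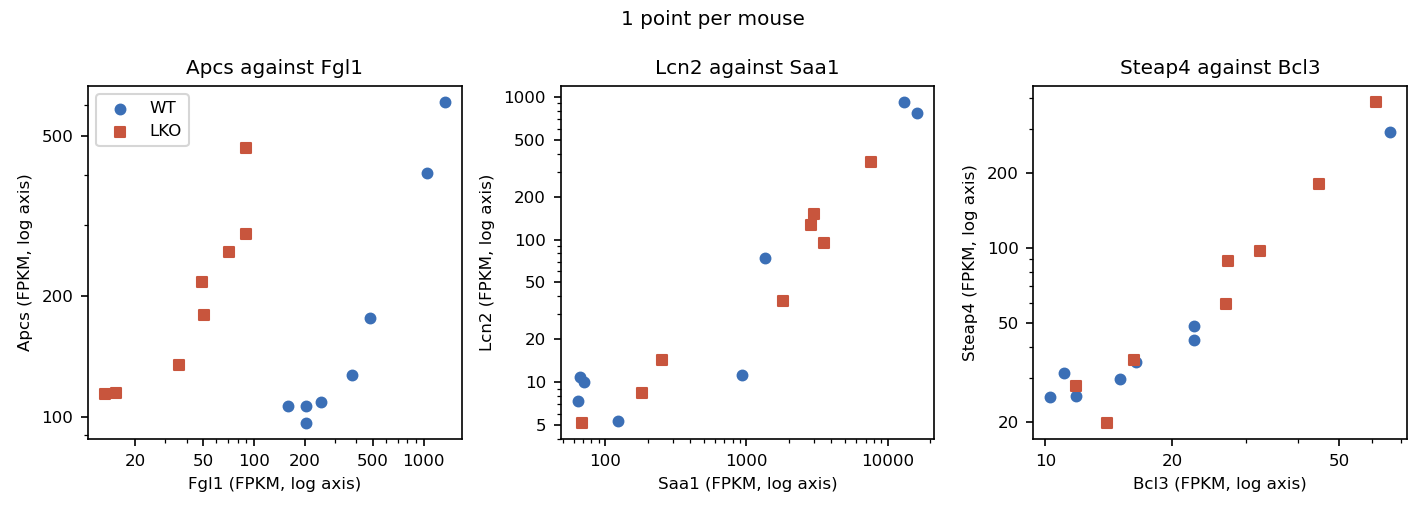
Levels (FPKM, log axes) of Apcs against Fgl1, Lcn2 against Saa1 and Steap4 against Bcl3, with 1 point per mouse (blue circles Fgl1 WT, red squares Fgl1 LKO). Apcs follows Fgl1 along a separate line in each genotype, while for the other pairs mice of both genotypes lie along 1 line.

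The wider pathway gave no call either. Of 27 other positive acute-phase genes 25 were tested, and 0 of them had an unadjusted p under 0.05 (7.01% of all genes). Of their estimates 19 lay above 0, with a median of 0.12, where 7126 of 12770 genes lay above 0, with a median of 0.014. Saa1 had 3997 ± 6665 FPKM in Fgl1 WT and 2431 ± 2535 FPKM in Fgl1 LKO mice (SD, n = 8 each), with a log2 difference of 0.88 and an SE of 1.31 (limma, adjusted p = 0.885). Of the 29 tested genes of interleukin 6 and interleukin 1 signalling, 0 passed the adjusted threshold and 3 had an unadjusted p under 0.05, each higher in Fgl1 LKO mice, beside 7.01% of all genes, of which 593 of 895 were higher there (467 of 986 after scaling by median ratios). The smallest belonged to Il6st, the shared receptor subunit gp130, with 22.5 ± 4.19 and 32.9 ± 10.5 FPKM (SD, n = 8 each) and a log2 difference of 0.49 (SE 0.16; limma, adjusted p = 0.696). Among the 15 negative acute-phase genes, whose proteins fall in inflammation, 13 estimates lay below 0, where 5644 of 12770 genes did. Alb, Ttr, Rbp4, Apoa1, Apoa2 and Ahsg were highest in Fgl1 WT mouse 1, and Serpina6, Gc, Cyp3a11 and Cyp2c29 in Fgl1 WT mouse 2. Both mice belong to the run 36 to 38, which holds only Fgl1 WT mice. The others, Trf, F12, Fetub, Cyp2e1 and Cyp7a1, were highest in mice of other runs. The part of that run in these estimates was not tested. Of these 15 genes 1 had an unadjusted p under 0.05 (7.01% of all genes). It was Serpina6, which encodes the corticosteroid-binding globulin, at a log2 difference of -0.50 (SE 0.13, limma, adjusted p = 0.660).

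The sign of the estimates depended on which libraries were compared. Within the run 48 to 55, with 1 Fgl1 WT and 3 Fgl1 LKO mice, all 10 genes were higher in Fgl1 LKO mice. Within the run 60 to 64, with 2 and 3 mice, all 10 were lower, and within the run 69 to 72, with 2 and 2 mice, 3 were higher and 7 lower. For Lcn2 the within-run log2 differences were 2.16, -0.18 and -2.80, and for Steap4 they were 0.59, -1.13 and 2.43. The mice of the run 36 to 38 were low for most of the genes. Of the 13 other mice, 13 lay above the highest mouse of that run for Apcs, 12 for Hpx, 10 each for Lcn2, Hp, Itih3, Itih4 and Steap4, 8 for Lbp, 7 for Cd14 and 5 for Cp. With the run as a term in the fit the log2 differences of Lcn2, Hp, Itih4 and Apcs were -0.47, -0.14, -0.10 and -0.044. Within the run 36 to 38 no difference between genotypes can be had.

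**Figure D5:**
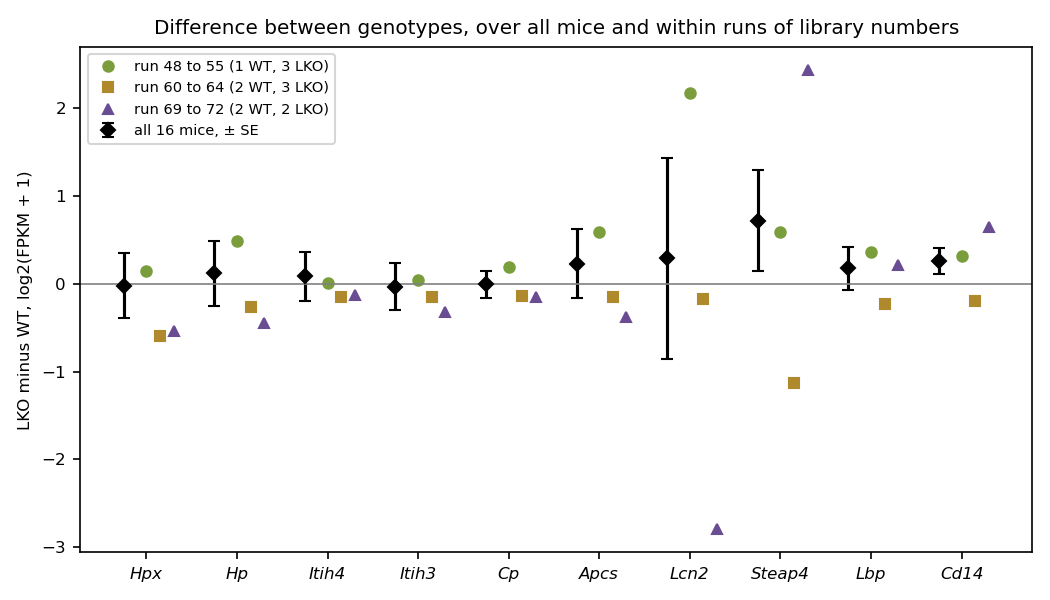
Fgl1 LKO minus Fgl1 WT difference in mean log2(FPKM + 1) of each gene, over all 16 mice (black, ± SE) and within each of the 3 runs of library numbers that hold both genotypes (coloured points, no error shown). The black points lie within 2 SE of 0, and the coloured points of a gene fall on both sides of 0.

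The spread between mice was also compared between the genotypes, as the absolute deviation of log2(FPKM + 1) from the genotype median. With limma, 0 of 10 genes had an adjusted p under 0.05, in a comparison in which 0 of 12770 genes (0%) did, and 0 of 10 had an unadjusted p under 0.05, against 4.42% of all genes. Cd14 had the smallest unadjusted p, 0.0777 (limma, adjusted p = 0.977), with mean deviations of 0.14 in Fgl1 WT and 0.30 in Fgl1 LKO mice. Lcn2 deviated by 2.07 and 1.78 and Steap4 by 0.63 and 1.11. With 8 mice per genotype such a test finds only large differences, and these values do not show that the spreads are equal.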

How the data were processed

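Total liver RNA of 8 Fgl1 WT and 8 Fgl1 LKO mice was sequenced on the DNBSEQ platform, in pairs of reads. According to the study's methods and the labels, the authors filtered the reads, aligned them with HISAT to mm39 and with Bowtie2 to the reference genes. Tool versions, the counting step and the annotation are not given in the sources used here. The authors deposited 1 table of FPKM values with 2 decimals, which were read as they stand. The methods give a smaller number of mice per genotype than the labels, and all 16 were used.

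From that table, log2(FPKM + 1) was computed and the 12770 genes averaging 0.1 FPKM or more were tested, with 864 of 17003 genes at 0 in all mice. Genotypes and spreads were compared with limma 3.58.1 in R 4.3.3 (trend, two-sided, Benjamini-Hochberg adjustment, threshold 0.05, 95% intervals) and single genes with exact permutation tests over 12870 assignments. The steps were tested on simulated data. Depth is unknown, so that no counting error can be given, and relative depth from low values was 0.957 to 1.014. The p-values set the difference between genotypes against the variation between mice. They take the mice as independent, and which mice shared a litter is not known. Python 3.11.15 with pandas 2.3.3 and scipy 1.17.1 did the rest. Groups and replicate numbers follow the labels. Gene positions are from GRCm39 with GENCODE annotation, and promoters from RefSeq on GRCm38.p6. The genes and lists were chosen with earlier results of these data known. Named genes are the 10 genes, Fgl1, Saa1, listed partners, the gene of smallest unadjusted p under 0.05 in each list, the 10 genes most like the mean of the 10 genes and the 2 genes most like each. Alternatives were other pseudocounts, filters, scalings, weights, a replicate block, the run as a term, and leaving out mice.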

Additional observations from a re-analysis of the deposited data

Results flagged for a closer look

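Single mice far from the rest of their genotype were looked for in 53 named genes, that is in 106 groups of 8 mice, by the gap of the highest or lowest mouse to the next as a share of the group's range beyond Dixon's 95% critical value. In 10 groups such a mouse was found. Chance flags about 1 in 20 groups, but the groups are not independent, because genes such as Bcl3, Myd88 and Saa4 were named for following Steap4 or Lbp, so that 1 mouse is counted repeatedly and no excess can be read from the count. Fgl1 WT mouse 5 was the highest of its genotype in 6 of them. Steap4 stood at 292 FPKM there against 48.3 FPKM in the next mouse (gap share 0.738), Lbp at 164 against 65.5 FPKM (0.799) and Cd14 at 2.32 against 1.60 FPKM (0.557). In the same mouse Saa4 stood at 709 against 194 FPKM (0.683), Bcl3 at 66.1 against 22.5 FPKM (0.587) and Myd88 at 15.3 against 9.69 FPKM (0.594). Slc22a17 was the lowest of its genotype in this mouse, at 0.17 against 0.32 FPKM (0.528).

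Lrp1 was lowest in Fgl1 WT mouse 8, at 53.4 against 70.5 FPKM (0.610), and Steap2 highest in Fgl1 WT mouse 2, at 1.49 against 1.03 FPKM (0.535). In the Fgl1 LKO group, Serpina3n, a serine protease inhibitor gene, stood at 1448 FPKM in mouse 8 against 519 FPKM in the next mouse (0.528). Lcn2, Hp, Hpx, Cp, Itih3, Itih4 and Apcs had no such mouse in either genotype.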

How the results depend on the processing

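In 26 alternatives of the genotype comparison, adjusted p-values of the 10 genes stayed at 0.482 or above (limma), and the log2 differences of Lbp, Cd14 and Steap4 kept their sign. Signs turned as follows. With the run as a term, Lcn2 was -0.47, Hp -0.14, Itih4 -0.10 and Apcs -0.044; without the run 36 to 38, Lcn2 was -0.84, Hp -0.25, Itih4 -0.20 and Apcs -0.20. Array weights gave 0.083 for Hpx and 0.020 for Cp, and rescaling to an equal sum gave 0.0020 for Cp. Leaving out each mouse in turn gave ranges of -0.13 to 0.95 for Lcn2, -0.022 to 0.33 for Hp, -0.16 to 0.20 for Hpx, -0.081 to 0.082 for Cp, -0.14 to 0.17 for Itih3 and -0.034 to 0.26 for Itih4. The cause was not tested.

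Replicate numbers did not pair mice of the genotypes, since the deviations of same-numbered mice correlated at -0.16 to 0.45. With a replicate block 1 gene, Fgl1, passed the adjusted threshold over all genes, as it did with an equal sum (1), the run as a term (1) and without the run 36 to 38 (1), against 0 otherwise. Leaving out each mouse in turn gave 0 to 2 of the 10 genes at an unadjusted p under 0.05 with limma (Cd14 and Steap4 without Fgl1 WT mouse 5, Cd14 without Fgl1 LKO mouse 4 or 6) and 0 to 1 with the exact permutation test (Cd14, p = 0.0469 without Fgl1 LKO mouse 4 and 0.0476 without mouse 6). Over all 12770 genes the limma count was 895 with all mice. It was 1198 without Fgl1 WT mouse 5, 1023 without Fgl1 LKO mouse 4 and 1233 without Fgl1 LKO mouse 6. The exact test was not run over all genes. In the comparison of spreads, 7 genes passed with deviations from the mean, 1 without the run 36 to 38 and 0 to 2 when each mouse was left out, and none was among the 10. Leaving out each mouse moved the difference in spread from -0.60 to 0.32 for Lcn2, -0.14 to 0.13 for Hp, -0.085 to 0.056 for Cp, -0.11 to 0.16 for Itih3, -0.094 to 0.15 for Itih4 and -0.24 to 0.13 for Apcs. In Fgl1 LKO mice alone, 5 of 9 neighbours in the order of levels kept their order in every mouse, against 3 in all mice. In the 100 bases before the start, the STAT motif was found in 1, the C/EBP motif in 2 and the NF-kB motif in 0 genes, as a shorter window holds fewer matches.

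Depth is unknown, and low levels such as those of Cd14, Tlr4 and Ly6g rest on few reads. The run 36 to 38 holds 1 genotype, and run and genotype cannot be told apart for its 3 mice.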

Other observations

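Over the 12770 genes, those most like the mean level of the 10 genes, by Spearman correlation over the 16 mice with the genotype mean subtracted, were Clu and Fgl1 (0.97 each), Tmem176b and Serpina3n (0.94 each), Prtn3 (0.94), Tmem176a, Serping1 and Lrg1 (0.93, 0.93 and 0.92), and Slc3a1 and Serpina10 (0.91 each). Lrg1, which encodes leucine-rich alpha-2 glycoprotein, ran from 204 to 1382 FPKM, and Serpina10, which encodes an inhibitor of activated coagulation factor X, from 120 to 430 FPKM. Slc3a1, a subunit of a cystine and dibasic amino acid transporter, ran from 18.8 to 104 FPKM. Prtn3, which encodes the neutrophil protease proteinase 3, ran from 0 to 26.4 FPKM and was highest in Fgl1 WT mouse 7, followed by Fgl1 WT mouse 5 at 15.3 FPKM, while Mpo and Elane, from neutrophil precursors too, stayed at or below 0.13 and 0.35 FPKM.

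The 10 genes at the other end, named after their values were seen and not tested as a group, were Ndufs1 of respiratory complex I (-0.94), Atp5b of the ATP synthase (-0.93), Uqcrc2 of complex III (-0.92), Ephx2 (-0.93), Foxn3 (-0.91), Cbfa2t2 (-0.90), Acad8, Idh3b of the citrate cycle and Sdha of complex II (-0.89 each), and Fam171a1 (-0.89). Ndufs1 lay between 32.9 FPKM, in Fgl1 WT mouse 5, and 47.5 FPKM, in Fgl1 LKO mouse 3, the mice in which Lcn2 was highest and lowest. Atp5b lay between 579 FPKM in Fgl1 WT mouse 5 and 783 FPKM in Fgl1 LKO mouse 3. FPKM are relative to the whole library, and the 10 genes took 3.73% of the summed FPKM in Fgl1 WT mouse 5 against 0.865% in Fgl1 LKO mouse 3. The part of this scaling in the correlations was not tested.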
